A study of Drosophila melanogaster with 12 samples.

Results

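The first larval step of type II neuroblasts was described by comparing 3 libraries of cells taken 36 h after larval hatching (ALH) with 3 libraries of cells taken at 24 h ALH, which are 6 of the 12 libraries of the series. All 15339 genes of the count table were members, and the 92 ERCC spike-in RNAs were kept out of the library sizes. Of these genes 7978 had enough counts to be tested. The others were low or absent and are not part of any count of calls below.

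Type II neuroblasts are stem cells of the larval Drosophila brain. Each divides to renew itself and to give an intermediate progenitor, which divides again before its daughters become neurons or glia. Larval neuroblasts change the genes they express as the larva ages, and this temporal series is known to set which neurons are made. The RNA-binding proteins Imp and Syp are its best known pair, Imp being high in young and Syp in old neuroblasts, and the nuclear receptor Seven-up (svp) is known as a switch between them.

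Both groups were Drosophila melanogaster larvae grown at 25 °C and differed in age. For each library GFP-labelled neuroblasts were picked from 30 dissected, enzymatically digested larval brains in batches of 10, and RNA of the pooled cells was amplified. No genotype, sex or driver of the GFP is given in the sources used here, so it is not known which other cells the label marks. Whether the 3 libraries of an age are independent dissections is not said, so the p-values cover the scatter among libraries, part or all of which may be technical. The other 6 libraries, at 50 h and 84 h, were made in the same way and are used below to estimate the spread and to set the first step beside later ones.

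The 24 h libraries held 4894369 to 8391731 gene counts and the 36 h libraries 4668707 to 5241944. A floor of 3 counts corresponded to 0.447 to 0.639 counts per 1000000 gene counts (CPM) at 24 h and 0.59 to 0.666 at 36 h, with library sizes scaled by TMM. Numbers of pooled cells did not overlap, being 93 to 101 at 24 h and 105 to 132 at 36 h. Within these 6 libraries cell number and age therefore cannot be told apart. Gene counts per ERCC count per sorted cell were 1.23, 1.14 and 2.02 at 24 h and 2.37, 1.94 and 1.91 at 36 h. The groups overlapped, and the 1.46-fold higher mean at 36 h gave p = 0.3 in a two-sided exact permutation test, whose smallest possible p with 3 against 3 libraries is 0.1. At 24 h, replicate 3 stood apart from the other libraries of its age in that ratio and in a length measure given below. The defining type II markers were present at both ages: btd (83.7, 101 and 85.6 CPM at 24 h and 67.8, 152 and 82.1 CPM at 36 h) and Sp1 (103 to 140 CPM over the 6 libraries) beside the neuroblast genes dpn, wor, klu, mira and insc. The neural factor ase, which type II neuroblasts lack, was low at 4.13 to 10.4 CPM, and the intermediate progenitor genes erm, opa and ham reached at most 3.13 CPM. The whole list of 14 progenitor genes in the table summed to 43.1 to 84.1 CPM at 24 h and 51.0 to 97.0 CPM at 36 h, with none of 8 tested called. Among them ey was at 3.73, 4.75 and 3.41 CPM at 24 h and 18.4, 2.82 and 7.28 CPM at 36 h (adjusted p = 0.338), and nerfin-1 at 2.54, 3.37 and 9.59 CPM at 24 h and 0.888, 0.217 and 1.57 CPM at 36 h, without overlap (adjusted p = 0.0987). Transcripts of the neuronal RNA-binding genes elav (165 to 249 CPM) and fne (135 to 215 CPM) were present at both ages, with overlapping groups.

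In this comparison 72 of 7978 genes passed edgeR's quasi-likelihood test at an adjusted p under 0.05, which is 0.902% of those tested. Of these, 36 were higher at 36 h (0.451%) and 36 were lower (0.451%). At an unadjusted p under 0.05 there were 1170. The rises were mostly of genes with low levels at 24 h: their median mean level went from 14.9 to 48.3 CPM, and their fold change had a median of 3.81 and a range of 1.73 to 38.2. The upper end is CG31462 on 2, 0 and 0 counts at 24 h (220-fold without 24 h replicate 1 and 20.5-fold without 36 h replicate 2). The falls were of genes with higher CPM, whose median level went from 178 to 68.9 CPM, with a median fold of 2.46 and a range of 1.63 to 23.6. CPM is not divided by transcript length, and the falls were of longer transcripts. Their median relative length was 2.39 against 1.29 for the rises, where 1 is the median tested gene. By at least 2-fold, 32 rose and 23 fell. The libraries of both ages did not overlap for any of the 72 genes, which was also so for 8.01% of all tested genes with 36 h higher and 8.03% with 36 h lower. The count rests on single libraries: without 24 h replicate 3 it was 80 rises and 100 falls, without 24 h replicate 2 it was 22 and 18, and without 36 h replicate 3 it was 20 and 9. It was 20 rises without 36 h replicate 2, 23 rises without 50 h replicate 1 and 59 falls without 84 h replicate 1. With only the 24 h and 36 h libraries it was 25 and 25. With cell number added as a covariate it was 15 and 6, and with scaling to ERCC totals, which raised the median of all genes by 0.855 on the log2 scale, 20 and 0. Of the 72 genes, 13 rises and 0 falls were still called with ERCC totals. A limma test of the authors' TPM, which covered 35 rises and 35 falls, kept 21 and 6. In all 12 fits that left out a library 15 rises and 8 falls were called, among them the rises Syp, fd102C, br, elB, mas, pain, Glycogenin and Mmp2 and the falls CrebA, svp, Lin29, Ten-m, Dys and l(1)G0469. Of these, Glycogenin, Mmp2 and elB were not called with ERCC totals, and CrebA, Ten-m and Dys were not called from the TPM. The remaining called genes passed in 1 to 11 of those fits, and the number is given below where it was under 6. At the share of 0.902% over all genes nearly every gene list below would hold less than 1 call, so a count of 0 or 1 in a list is not a result about that list. The lists were also chosen with earlier results of these data known. Larger shares called in a list are therefore descriptions, and no test of them was made.

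**Figure D1:**
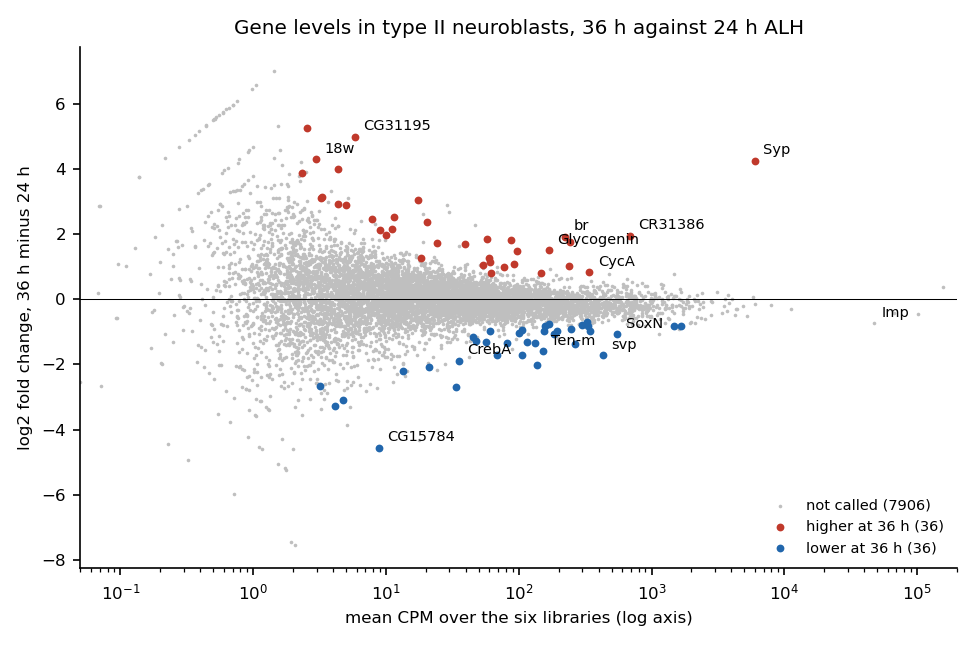
Log2 fold change of each tested gene, 36 h minus 24 h (vertical axis), against its mean level in CPM over the 6 libraries (horizontal log axis), with called genes in colour. Syp stands alone among genes of high CPM at 4.25, and the other rises lie mostly below 100 CPM. The falls are of genes with higher CPM, with a median level at 24 h of 178 CPM, which is not divided by transcript length.

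Of 15 tested temporal genes 2 rose and 2 fell, which is 26.7% against 0.902% of all genes, with a median log2 change of -0.06. Syp (FBgn0038826), an RNA-binding protein that marks older neuroblasts, had 624, 463 and 720.4 CPM at 24 h and 16820, 9547 and 7926 CPM at 36 h. All 36 h libraries were far above the 24 h ones. Syp rose 18.97-fold (log2 fold change 4.25 ± 0.27, adjusted p = 1.97e-09) and was called in all 12 fits that left out a library. The zinc-finger transcription factor br (FBgn0000210), known from the ecdysone response, had 115, 62.7 and 105 CPM at 24 h and 510.0, 296 and 257 CPM at 36 h, again with no overlap. It rose 3.77-fold (log2 fold change 1.92 ± 0.24, adjusted p = 9.79e-05).

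Among temporal genes that fell, svp (FBgn0003651), an orphan nuclear receptor, had 678, 781 and 527 CPM at 24 h and 212, 246 and 141 CPM at 36 h. All 36 h libraries were below the lowest 24 h library, and svp fell 3.31-fold (log2 fold change -1.73 ± 0.23, adjusted p = 0.000127). Lin29, a zinc-finger gene now named dati, had 162, 176 and 152 CPM at 24 h and 60.9, 45.2 and 43.7 CPM at 36 h. Its 24 h libraries were close together, and it fell 3.27-fold (log2 fold change -1.71 ± 0.24, adjusted p = 0.000194). Both were called in all 12 fits that left out a library.

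The other 11 tested temporal genes did not pass. Imp (FBgn0262735), the RNA-binding protein of young neuroblasts, had 74670, 58080 and 44230 CPM at 24 h and 38030, 40590 and 27570 CPM at 36 h, so the groups did not overlap, and its log2 fold change was -0.74 ± 0.20 (adjusted p = 0.0868). Among the fits that left out a library it passed without 24 h replicate 3 or without 84 h replicate 1, with a range of adjusted p over all alternatives of 0.00579 to 1. Ranges given here and below include the test against a 2-fold change, which asks whether a change exceeds 2-fold. Their upper ends are therefore no measure of processing alone. With scaling to ERCC totals the adjusted p of Imp was 0.834. The ecdysone receptor gene EcR had 116, 105 and 98.8 CPM at 24 h and 181, 179 and 155 CPM at 36 h, with tight and separate groups (0.69 ± 0.18, adjusted p = 0.0629), and of the 12 fits that left out a library it passed in the one without 84 h replicate 1 (all alternatives spanned 0.000472 to 1). The BTB factor chinmo, a gene of young neuroblasts, had 2353, 1908 and 1532 CPM at 24 h and 1610, 1641 and 1232 CPM at 36 h, which overlapped (-0.37 ± 0.23). The small-RNA regulator lin-28 was at 127, 132 and 186 CPM at 24 h and 48.9, 142 and 97.2 CPM at 36 h, and the 36 h libraries spread widely (-0.63 ± 0.27). The zinc-finger factor cas was at 13.7, 45.7 and 79.9 CPM at 24 h, a wide spread within one age, and at 78.9, 100.3 and 96.2 CPM at 36 h (0.99 ± 0.60, adjusted p = 0.489). The Sox factor D was at 24.5, 27.9 and 28.8 and then 21.6, 64.3 and 52.2 CPM (0.77 ± 0.32, adjusted p = 0.254), and grh, a transcription factor that maintains neuroblast division, at 1135, 1194 and 912 and then 632, 974 and 683 CPM (-0.50 ± 0.17, adjusted p = 0.163). The zinc-finger gene mamo was near the floor, at 0.298, 0.460 and 0.852 and then 3.78, 1.52 and 2.56 CPM (2.28 ± 0.83, adjusted p = 0.194). Eip93F, an ecdysone-induced factor of old neuroblasts, was at 2.83 to 8.31 CPM in the 6 libraries (adjusted p = 0.979), ab at 0.852 to 3.94 CPM (adjusted p = 0.874), and Kr at 2.24, 22.4 and 20.02 and then 2.44, 0 and 4.13 CPM (adjusted p = 0.439). The embryonic temporal factors hb, nub and pdm2 were at or under 0.217 CPM and were not tested.

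**Figure D2:**
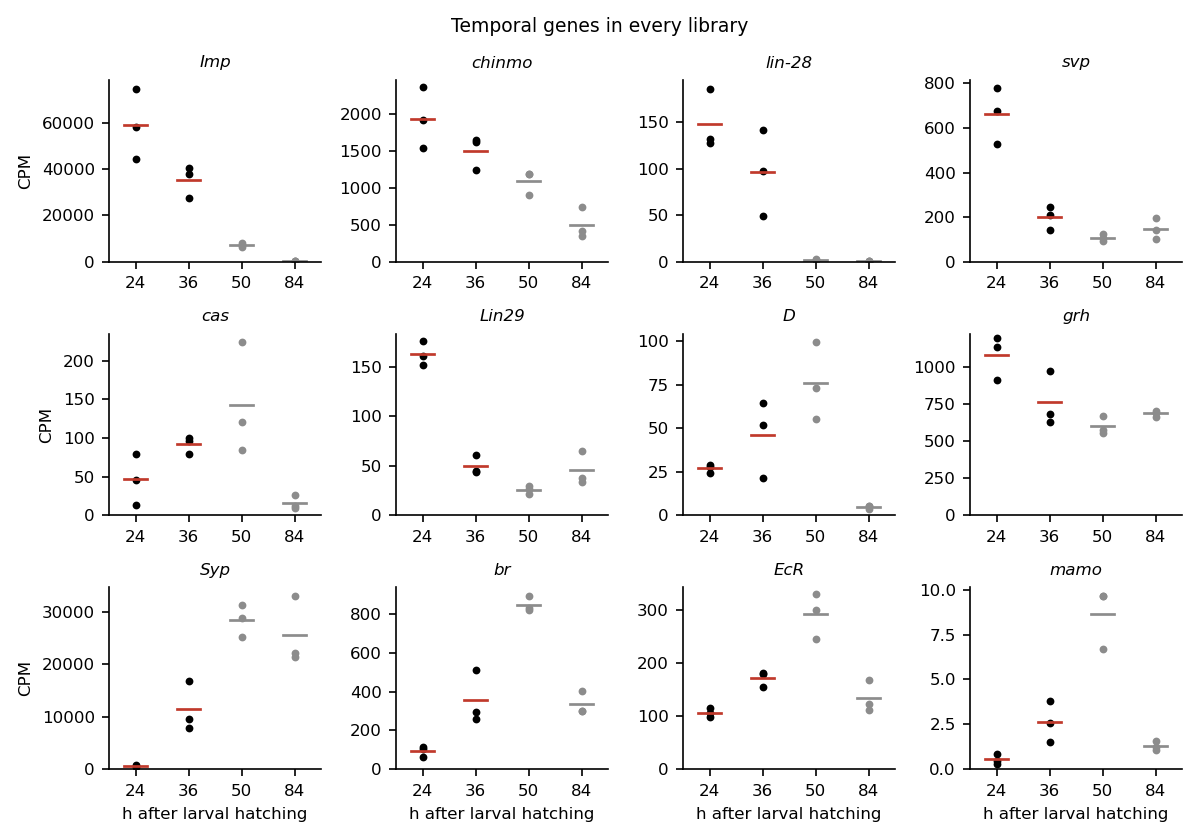
CPM of 12 temporal genes (vertical axes from 0, linear) in every library at 24, 36, 50 and 84 h after larval hatching, each point a library and each bar the mean of 3, with the first step in black and red and the later ages in grey. Syp and br rise and svp and Lin29 fall between 24 and 36 h without overlap, while cas and lin-28 overlap between both ages.

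Beyond the temporal list, several transcription factor genes rose. The forkhead gene fd102C had 5.07, 5.52 and 0.426 CPM at 24 h and 39.8, 36.7 and 17.9 CPM at 36 h, was close to the floor in 24 h replicate 3, and rose 8.21-fold (log2 fold change 3.04 ± 0.50, adjusted p = 0.00168). The zinc-finger gene chn, known as a repressor in sensory neuron development, had 2.09, 6.59 and 1.28 CPM at 24 h and 15.8, 19.1 and 24.01 CPM at 36 h and rose 5.79-fold (log2 fold change 2.53 ± 0.50, adjusted p = 0.00981), which was 11.2-fold without 24 h replicate 2, and it was lost without 36 h replicate 3. The NET-family zinc-finger gene elB, known from tracheal and leg patterning, had 25.4, 18.1 and 31.3 CPM at 24 h and 68.2, 110.5 and 91.9 CPM at 36 h and rose 3.63-fold (log2 fold change 1.86 ± 0.29, adjusted p = 0.000672). In none of the 3 did the ages overlap. The homeobox gene Six4, known from muscle and gonad development, went from 35.1 ± 7.02 to 72.1 ± 6.18 CPM (mean ± SD, n = 3) and rose 2.06-fold (adjusted p = 0.0236). The Mediator subunit gene MED4 had 5.52, 4.29 and 2.34 CPM at 24 h and 14.4, 13.2 and 20.7 CPM at 36 h, all low, and rose 3.92-fold (log2 fold change 1.97 ± 0.45, adjusted p = 0.0323). It was the only one of 27 tested Mediator genes to pass, the median of that list being -0.07 against -0.01 over all genes. MED4 was called in 5 of the 12 fits that left out a library and in none that left out a 36 h library.

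Other transcription factor genes fell. The Snail-family gene scrt, a zinc-finger factor known from neurons, had 12.8, 24.8 and 28.5 CPM at 24 h and 3.33, 3.69 and 7.09 CPM at 36 h and fell 4.64-fold (log2 fold change -2.21 ± 0.43, adjusted p = 0.00964), with the ages apart but the call lost without 36 h replicate 1 or 2. The bZIP factor CrebA (FBgn0004396), known as an activator of secretory pathway genes, had 43.4, 69.3 and 53.7 CPM at 24 h and 11.3, 19.97 and 13.6 CPM at 36 h. The ages were well apart, and CrebA fell 3.70-fold (log2 fold change -1.89 ± 0.31, adjusted p = 0.00162). SoxN, a SoxB factor of neural stem cells, went from 749 ± 169.8 to 355 ± 131 CPM and fell 2.11-fold (adjusted p = 0.0106). It was the only called gene of the 16 of the neuroblast identity list, whose median was -0.14. The AP-1 factor kay, the fly Fos, fell 2.06-fold from 136 ± 31.2 to 65.9 ± 13.8 CPM (adjusted p = 0.0357), the zinc-finger gene jing fell 1.99-fold (adjusted p = 0.00497) and the clock repressor cwo fell 1.96-fold (adjusted p = 0.0178). CG11873, listed today as Bicra, a chromatin remodelling subunit, had one of the largest differences in CPM with 2330, 2427 and 1610 CPM at 24 h and 1176, 1425 and 969 CPM at 36 h, and fell 1.78-fold (log2 fold change -0.83 ± 0.20, adjusted p = 0.0469). It was called in 4 of the 12 fits that left out a library. With scaling to ERCC totals instead of TMM its log2 fold change was 0.08. Of 31 tested patterning transcription factors 3 rose (fd102C, chn and elB) and 1 fell (scrt), which is 12.9% against 0.902% of all genes, with a median of -0.10.

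**Figure D3:**
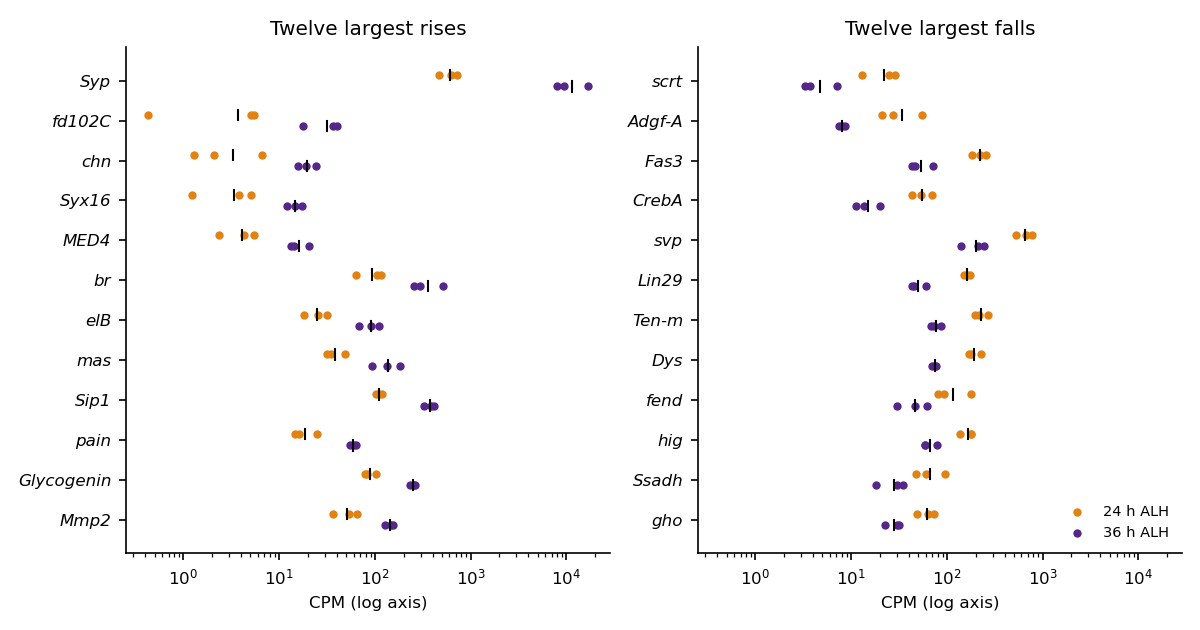
CPM (horizontal log axis) in each of the 3 libraries at 24 h (orange) and 36 h (purple) for the 12 largest rises and 12 largest falls among called genes with a name and a mean of at least 10 CPM at one age, black bars being means. The colours do not overlap for any gene, and Syp has the highest mean at 36 h.

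A pair of the strongest rises sit beside Syp in the genome. In the RefSeq Release 6 annotation, which is later than the authors' builds and is used here only for names and neighbours, CG31195 overlaps Syp and CG42322 lies 89 bases from it. CG31195 had 0.597, 0 and 0.426 CPM at 24 h and 10.2, 13.03 and 10.8 CPM at 36 h, that is 4, 0 and 2 counts against 46, 60 and 55. CG42322 had 0.597, 0.613 and 0.213 CPM at 24 h and 13.3, 6.30 and 5.12 CPM at 36 h. Both rose beside Syp, by 31.8-fold (log2 fold change 4.99 ± 0.58, adjusted p = 3.69e-05) and 15.9-fold (log2 fold change 3.99 ± 0.54, adjusted p = 0.000131), and the CG31195 fold was 55.5 without 24 h replicate 1 and 20.7 without 24 h replicate 2. Per 1000 Syp counts, CG31195 had 0 to 0.956 counts at 24 h and 0.607 to 1.37 at 36 h, and CG42322 had 0.296 to 1.32 and 0.646 to 0.792. In the 6 later libraries those ratios were 0.992 to 1.54 and 0.63 to 1.37, while Syp itself rose further. The strand setting of the counting is not stated, so reads of these 3 genes could not be assigned with certainty. They were the only neighbours within 1000 bases among the 70 of the 72 called genes that could be placed. A further pair, CG31462 and CG43462, are listed today as the single gene CG45263, with 2, 0 and 0 counts then 14, 45 and 11 for the first and 2.09, 1.38 and 3.83 CPM at 24 h and 6.44, 14.98 and 18.3 CPM at 36 h for the second. Both passed the test (adjusted p = 0.0155 and adjusted p = 0.0195).

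Of 40 tested axon guidance and adhesion genes, 1 rose and 4 fell, which is 12.5% called against 0.902% of all genes, with a median of -0.23. The gene that rose, 18w, a Toll-family receptor, had 5, 0 and 0 counts at 24 h and 48, 14 and 17 at 36 h (adjusted p = 0.0372), called in 5 of the 12 fits that left out a library, and no fold is given for so few counts. Ten-m, a teneurin that matches synaptic partners, had 272, 197 and 219 CPM at 24 h and 73.5, 87.3 and 67.5 CPM at 36 h, with the ages far apart, and fell 3.02-fold (log2 fold change -1.59 ± 0.21, adjusted p = 0.000127). The homophilic adhesion gene Fas3 had 220.5, 256 and 182 CPM at 24 h and 43.3, 72.1 and 46.2 CPM at 36 h and fell 4.08-fold (log2 fold change -2.03 ± 0.43, adjusted p = 0.0469), but was called in only 2 of the 12 fits that left out a library. The guidance ligand sli, which repels axons through Robo receptors, fell 2.09-fold from 248 ± 67.05 to 118 ± 20.4 CPM (adjusted p = 0.00802). Neurotactin, Nrt, fell 1.73-fold from 379.6 ± 46.7 to 219 ± 24.9 CPM (adjusted p = 0.00981) and had a log2 fold change of 0.05 with ERCC scaling. The relative transcript length of this list had a median of 2.78, where 1 is the median tested gene, and with offsets for length its median change was -0.05.

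Matrix genes were called in both directions. The serine protease homologue mas, known to stabilise muscle attachment, had 34.6, 48.9 and 31.9 CPM at 24 h and 184, 133 and 94.3 CPM at 36 h, with no overlap between the ages. It rose 3.55-fold (log2 fold change 1.83 ± 0.25, adjusted p = 0.000231). The matrix metalloproteinase Mmp2 had 64.9, 36.3 and 53.7 CPM at 24 h and 147, 155 and 127 CPM at 36 h and rose 2.77-fold (log2 fold change 1.47 ± 0.21, adjusted p = 0.000319), and both genes were called in all 12 fits that left out a library. Outside the matrix list, Sulf1, which edits heparan sulphate, rose 2.20-fold from 37.6 ± 4.70 to 83.01 ± 29.3 CPM (adjusted p = 0.00981), and the leucine-rich repeat gene Lrt, known from tendon cells, rose 2.41-fold (adjusted p = 0.0131). The secreted adenosine deaminase Adgf-A had 20.9, 54.6 and 27.5 CPM at 24 h and 7.55, 8.68 and 8.07 CPM at 36 h. Its 24 h libraries differed among themselves and its 36 h libraries hardly at all, and it fell 4.23-fold (log2 fold change -2.08 ± 0.44, adjusted p = 0.0174). The dystrophin gene Dys, also outside the list, which links the cytoskeleton to the matrix, had 178, 226 and 169 CPM at 24 h and 77.5, 70.3 and 75.4 CPM at 36 h and fell 2.57-fold (log2 fold change -1.36 ± 0.18, adjusted p = 0.000127). The talin gene rhea fell 1.63-fold (adjusted p = 0.0469), in 3 of the 12 fits that left out a library, with a log2 fold change of 0.17 under ERCC scaling. Of 19 tested genes of the matrix and integrin list 2 rose (mas and Mmp2) and 2 fell (Adgf-A and rhea). That is 21.1% against 0.902% of all genes, and it counts Adgf-A, an enzyme rather than a matrix component. The median of -0.28 was -0.01 with offsets for length. With 1 of the 24 h or 36 h libraries left out it was -0.10 to 0.01, a range that does not include -0.28.

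Among signalling genes, tkv and nkd were called. The Dpp receptor gene tkv had 47.3, 41.9 and 66.7 CPM at 24 h and 68.9, 119.8 and 122 CPM at 36 h, nearly touching between the ages, and rose 2.00-fold (log2 fold change 1.00 ± 0.24, adjusted p = 0.0454). It was called in 4 of the 12 fits that left out a library. It was the only one of 16 tested Activin and Dpp genes called (6.25% against 0.902%). The Wnt antagonist nkd had 145, 165 and 105 CPM at 24 h and 73.5, 84.2 and 57.7 CPM at 36 h and fell 1.93-fold (log2 fold change -0.95 ± 0.21, adjusted p = 0.0326), the only one of 20 Wnt genes (5.0%). In the list of 14 JAK-STAT and JNK genes the 1 call was kay (7.14%), described above. No gene was called among 29 of the Notch pathway, 22 of insulin, TOR and Myc growth, 15 of Hedgehog, 18 of Fat and Hippo and 28 of EGFR, FGF and Ras signalling. In the Notch list 20 of 29 log2 changes were below 0 and the median was -0.27, or -0.29 with length offsets. In the insulin list 19 of 22 were below 0, with a median of -0.22 that became -0.10 with length offsets. Members nearest to a call were spdo, a Notch regulator in asymmetric division (86.1, 68.7 and 59.2 CPM at 24 h and 31.5, 46.03 and 35.6 CPM at 36 h, adjusted p = 0.124), numb, which antagonises Notch (336, 367 and 350.2 CPM at 24 h and 537, 590.3 and 392.1 CPM at 36 h, adjusted p = 0.128), and the Hippo pathway gene kibra (109.6, 208 and 83.5 CPM at 24 h and 46.6, 72.95 and 53.5 CPM at 36 h, adjusted p = 0.0523). Scaling to ERCC totals turned all 35 negative list medians positive, so the signs given for lists here hold only for levels relative to the other genes.

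Secretory pathway genes gave a second call beside CrebA. Of 33 tested, 21 were below 0 and 12 above, with a median of -0.17 and -0.15 with length offsets. The 2 calls were 6.06% of the list, against 0.902% of all genes. The second was gho, listed today as Sec24CD, a coat subunit of vesicles that leave the endoplasmic reticulum, which had 49.2, 73.5 and 64.1 CPM at 24 h and 22.4, 31.3 and 30.1 CPM at 36 h and fell 2.23-fold (log2 fold change -1.15 ± 0.24, adjusted p = 0.0139). The list's summed level was 4964 to 6510 CPM in the 24 h libraries and 4589 to 4947 CPM in the 36 h libraries, so the sums did not overlap by a narrow margin. The mucin-type glycosyltransferase gene pgant5 fell 1.79-fold (adjusted p = 0.0357) and had 0.04 under ERCC scaling. In the other direction the Golgi SNARE gene Syx16 had 5.07, 1.23 and 3.83 CPM at 24 h and 17.3, 12.2 and 14.8 CPM at 36 h and rose 4.36-fold (log2 fold change 2.12 ± 0.51, adjusted p = 0.0469), but was called in only 4 of the 12 fits that left out a library.

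Among metabolic genes single members passed. Glycogenin, which primes glycogen synthesis, had 79.1, 104 and 82.6 CPM at 24 h and 253, 235 and 259 CPM at 36 h, among the tightest groups of all, and rose 2.82-fold (log2 fold change 1.49 ± 0.16, adjusted p = 9.4e-06). No gene of 18 tested in glycolysis passed, with a median of -0.02. Ssadh, a mitochondrial enzyme of GABA breakdown, had 94.4, 47.7 and 60.1 CPM at 24 h and 18.2, 35.2 and 30.3 CPM at 36 h and fell 2.42-fold (log2 fold change -1.27 ± 0.31, adjusted p = 0.0469), called in only 3 of the 12 fits that left out a library. The pyruvate carboxylase gene CG1516, listed today as PCB, fell 1.88-fold from 321 ± 37.3 to 171 ± 56.5 CPM (adjusted p = 0.0174). None of 28 tested nuclear oxidative phosphorylation genes passed, although 23 were above 0 with a median of 0.18. None of 72 mitochondrial ribosomal protein genes passed, with 52 above 0 and a median of 0.29. These lists are of short transcripts, with median relative lengths of 0.411 and 0.361, and with length offsets the medians were -0.01 and 0.08.

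The cell cycle lists held 1 call, or 1.79% of the mitosis list, against 0.902% of all genes. The cyclin gene CycA, which acts in S phase and mitosis, had 230.5, 248 and 256 CPM at 24 h and 463, 372 and 470.2 CPM at 36 h, and rose 1.78-fold (log2 fold change 0.83 ± 0.15, adjusted p = 0.00497), in all 12 fits that left out a library. It was the only call among 56 mitosis and G2/M genes, of which 38 were above 0 (median 0.10, or 0.17 with length offsets). The cyclin gene CycB was at 129.8, 144 and 158 CPM at 24 h and 218, 236 and 194 CPM at 36 h, also without overlap (adjusted p = 0.0627), while CycB3, stg and polo overlapped. Of 49 DNA replication and G1/S genes none passed, 41 were above 0, and the median was 0.25 and 0.22 with length offsets. The summed level of that list was 4749 to 5232 CPM at 24 h and 5666 to 5921 CPM at 36 h, without overlap. RfC38, a clamp loader subunit (16.3, 5.98 and 11.1 CPM at 24 h and 22.9, 26.7 and 26.2 CPM at 36 h, adjusted p = 0.0988), and geminin, an inhibitor of replication licensing (94.6, 48.8 and 62.8 CPM at 24 h and 118, 104 and 119.7 CPM at 36 h, adjusted p = 0.128), came nearest. Bj1, listed today as Rcc1, the exchange factor that charges Ran on chromatin, had 136, 183 and 157 CPM at 24 h and 353, 294 and 317 CPM at 36 h and rose 2.03-fold (log2 fold change 1.02 ± 0.16, adjusted p = 0.000608). Nedd8, the ubiquitin-like modifier of cullins, rose 1.73-fold from 45.4 ± 1.87 to 78.5 ± 12.3 CPM (adjusted p = 0.032).

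Lists of asymmetric division and growth genes held no call, at sizes where the share over all genes, 0.902%, gives less than 1. None of 30 asymmetric division genes was called (median -0.10), nor any of 86 cytosolic ribosomal protein genes (median 0.10, and -0.09 with length offsets). The same held for 35 of ribosome biogenesis (0.14), 33 translation factors (-0.11), 21 aminoacyl-tRNA synthetases (-0.03), 30 of the proteasome list (0.09), 23 vacuolar ATPase subunits (-0.19) and 19 nucleoporins (-0.01). The proteasome list also holds Prosap, which is not a subunit. Of 33 tested RNA-binding regulators of translation and decay, Syp alone was called, and 25 were below 0 with a median of -0.22, which length offsets moved to -0.01. Among 40 Polycomb and trithorax genes 1 fell, the zinc-finger gene jing, and the median went from -0.16 to -0.03 with length offsets. Among 18 ecdysone response genes only br passed, with a median of -0.06. Of 22 tested heat shock and dissociation stress genes 1 fell (4.55%), and 20 were below 0. The 1 call was the AP-1 gene kay, which is also the call of the JAK-STAT and JNK list, and no heat shock protein gene was called. The median was -0.25, or -0.34 with length offsets. Summed levels of that list overlapped, at 26050 to 34300 CPM at 24 h and 19180 to 37020 CPM at 36 h. Any part of cell handling in these values was not tested.

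Other genes with large changes belong to no list. The PDZ scaffold gene Sip1, which binds Moesin, had 103, 118 and 111 CPM at 24 h and 327, 413 and 386 CPM at 36 h, tight at both ages, and rose 3.39-fold (log2 fold change 1.76 ± 0.25, adjusted p = 0.000398). The TRP channel gene pain, known for its part in nociception, had 14.6, 16.2 and 24.7 CPM at 24 h and 55.3, 63.8 and 60.03 CPM at 36 h and rose 3.24-fold (log2 fold change 1.69 ± 0.31, adjusted p = 0.00465). The gene hig, whose secreted product sits in the synaptic cleft, had 179.9, 178 and 138 CPM at 24 h and 79.5, 58.8 and 59.6 CPM at 36 h and fell 2.50-fold (log2 fold change -1.32 ± 0.24, adjusted p = 0.00407). The gene fend had 92.8, 177 and 80.7 CPM at 24 h and 30.4, 62.1 and 46.6 CPM at 36 h and fell 2.52-fold (log2 fold change -1.33 ± 0.28, adjusted p = 0.0174). The CG-numbered gene with the largest fall was CG15784, with 178, 101 and 42 counts at 24 h and 5, 0 and 5 at 36 h, a fall of 23.6-fold (log2 fold change -4.56 ± 0.82, adjusted p = 0.00425). The chitin synthase gene kkv had 71, 36 and 31 counts and then 4, 1 and 6 (adjusted p = 0.0195), lost without any one 36 h library. The odorant receptor gene Or42b had 66, 19 and 18 counts and then 8, 2 and 2 (adjusted p = 0.039). It was the 1 call among 29 tested of 229 chemoreceptor genes, and its 6.37-fold fall was 3.86-fold without 24 h replicate 1 and 12.8-fold without 36 h replicate 1. The anion exchanger gene CG8177, today Ae2, fell 1.69-fold (adjusted p = 0.02), as did RhoGEF3 by 1.78-fold and enc by 1.77-fold, and these 3 had small positive values of 0.11, 0.06 and 0.12 under ERCC scaling.

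Noncoding genes gave 2 calls of 100 tested CR-numbered genes, 1 in each direction. That is 2.0% against 0.902% of all genes, too few calls to be a result about the class. CR31386 had 386, 204 and 260.1 CPM at 24 h and 1134, 1274 and 869 CPM at 36 h, the second largest rise in CPM among called genes after Syp, and rose 3.85-fold (log2 fold change 1.95 ± 0.24, adjusted p = 8.34e-05). CR44024 had 414, 353 and 381 CPM at 24 h and 90.2, 215 and 133 CPM at 36 h and fell 2.62-fold (log2 fold change -1.39 ± 0.22, adjusted p = 0.000672). Both were called in all 12 fits that left out a library. Among the 3663 tested genes with a CG number only, 14 rose and 9 fell, which is 0.628% against 0.902% of all genes. Besides the neighbours of Syp, they included CG9335, listed today as twit, with 6.86, 5.83 and 7.24 CPM at 24 h and 41.8, 45.6 and 14.96 CPM at 36 h (adjusted p = 0.0186), CG8520 with 2.69, 3.37 and 6.39 CPM at 24 h and 19.1, 13.7 and 21.1 CPM at 36 h (adjusted p = 0.000608), CG11825 with 73.2, 62.6 and 38.8 CPM at 24 h and 10.00, 6.08 and 10.8 CPM at 36 h (adjusted p = 0.0357, called in 5 of 12 such fits) and CG32392, listed today as Rsph3, with 109, 108 and 100.5 CPM at 24 h and 32.6, 37.8 and 25.98 CPM at 36 h (adjusted p = 0.0264).

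The remaining called genes are given briefly. The selectin-like gene fw rose from 10.9 ± 2.61 to 26.1 ± 2.15 CPM (adjusted p = 0.0469), in 2 of the 12 fits that left out a library. The gene l(1)G0469 fell 1.97-fold from 259 ± 47.02 to 131 ± 15.4 CPM (adjusted p = 0.00362). Among numbered genes CG5554 rose from 58.9 ± 18.5 to 124 ± 19.3 CPM. CG14696 fell 2.50-fold and CG7766 fell 1.95-fold. CG5945, listed today as Jhbp13, had 53, 47 and 49 counts at 24 h and 4, 3 and 7 at 36 h (adjusted p = 0.0155), with no overlap. CG5987, listed today as TTLL6B, had 4, 0 and 1 counts and then 12, 29 and 21 (adjusted p = 0.0391), in 4 of the 12 fits that left out a library. The low rises CG1738, CG42494, CG4447 and CG5342 had mean levels of at most 8.80 CPM at 36 h and were called in 1, 3, 2 and 2 of those fits.

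Transcript length moved with the comparison. Relative length, taken from the ratio of counts to the authors' TPM, was known for 96.3% of tested genes. Over 5 equal bins of length the median log2 change was 0.17, 0.11, 0.00, -0.07 and -0.19 from the shortest to the longest. Of the falls with a known length, 24 of 35 were in the longest bin and 1 in the shortest, against 10 and 5 of the rises, and the median relative length was 2.39 for falls and 1.29 for rises. In single libraries the median of the longest bin minus that of the shortest was 0.40, 0.71 and 0.04 at 24 h and 0.04, 0.16 and -0.27 at 36 h, on the log2 scale relative to the mean of 12 libraries, so 24 h replicate 3 was like the 36 h libraries. With library-specific offsets for length, an alternative added after the data were seen, 46 genes rose and 60 fell, including 30 of the 36 rises and 32 of the 36 falls. The part of length in single calls was not tested further.

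**Figure D4:**
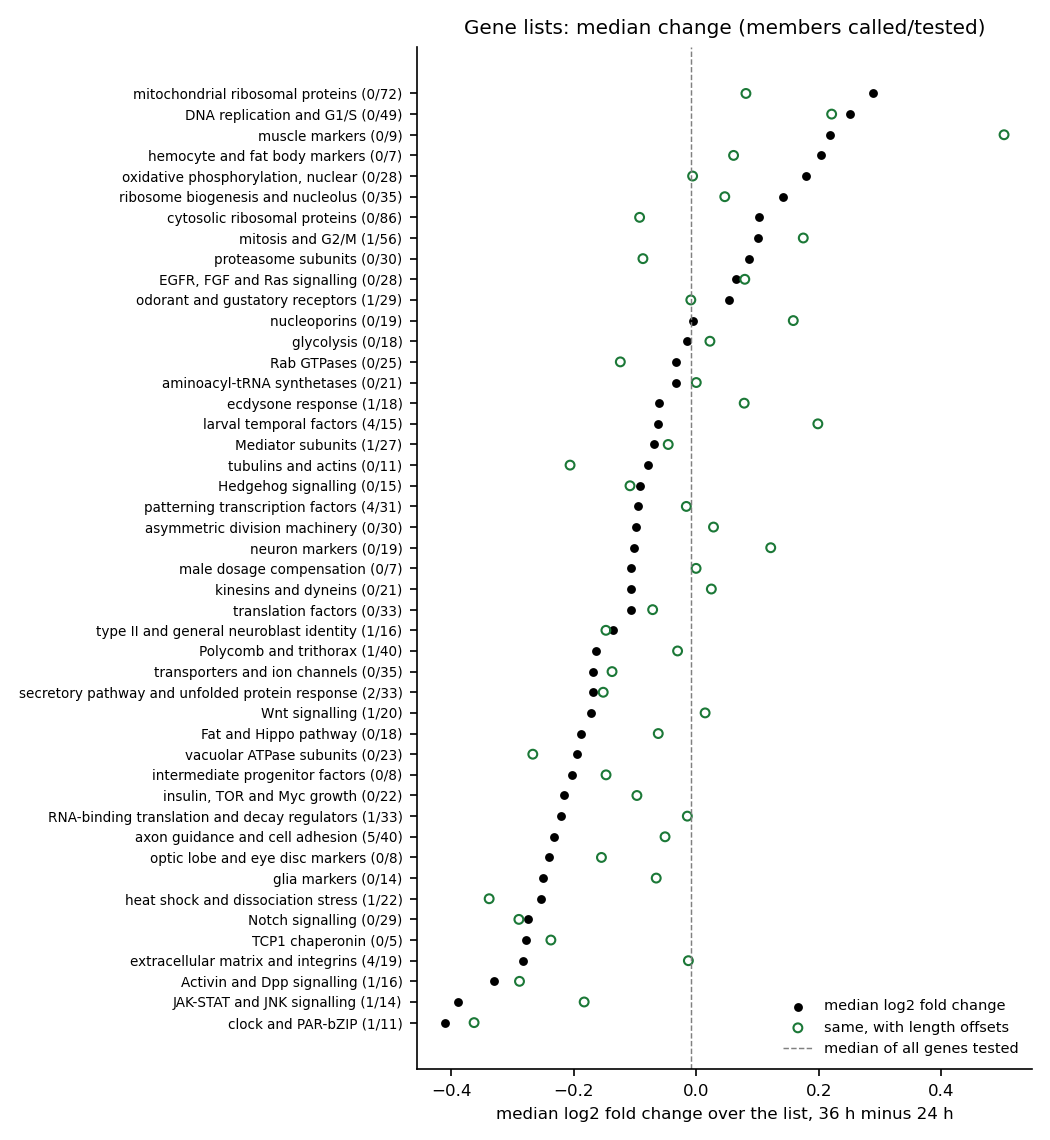
Median log2 fold change, 36 h minus 24 h, over the tested members of each gene list (black), the same with length offsets (green open circles) and the median of all genes (dashed line), with members called and tested in brackets. Mitochondrial ribosomal and replication genes lie highest at 0.29 and 0.25, and scaling to ERCC totals made every negative median positive. With length offsets the axon guidance and adhesion list moves toward 0, while the muscle list, of longer transcripts, moves further above it.

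Marker lists of other cell types are short, and at 0.902% of all genes called a count of 0 in them is not informative. None of 19 tested neuron markers was called (median -0.10, summed level 1838 to 2288 CPM at 24 h and 1562 to 1876 CPM at 36 h), and none of 14 glia markers (2018 to 2155 and 1954 to 2348 CPM), 7 hemocyte and fat body, 9 muscle or 8 optic lobe and eye disc markers. The muscle gene sls, which encodes a titin-like protein, was at 10.4, 1.69 and 3.83 CPM at 24 h and 43.98, 34.95 and 19.9 CPM at 36 h without overlap (2.61 ± 0.86, adjusted p = 0.186). It passed in 4 of 22 alternatives, among them scaling to ERCC totals (0.0167) and the 6 libraries alone (0.0164), with a range of 4.72e-07 to 1. The eye and optic lobe factor Optix was at 19.8, 15.5 and 14.9 CPM at 24 h and 23.8, 58.2 and 23.2 CPM at 36 h, also without overlap (1.06 ± 0.40, adjusted p = 0.207). The defining glial genes repo and wrapper and the synaptic genes Syt1 and brp were at or under 5.52 CPM in all 6 libraries, and the fat body genes Lsp2 and Fbp1 were at 0. The glial barrier gene moody was at 31.0 CPM in 24 h replicate 2 and at 2.89 to 8.07 CPM in the other 5 libraries, and repo was highest in the same library. The glutamate transporter gene Eaat1 was at 196, 127 and 165 CPM at 24 h and 274, 218 and 274 CPM at 36 h without overlap (0.65 ± 0.17, adjusted p = 0.0706), and passed without 24 h replicate 1 (range 0.0276 to 1). In pooled cells a lower share of one cell type and less RNA per cell cannot be told apart.

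The step was then set beside later ones. From 36 h to 50 h, which shares the 36 h libraries, 150 genes were higher (1.88%) and 189 lower (2.37%), and from 50 h to 84 h, which shares no library with the first step, 93 were higher (1.17%) and 151 lower (1.89%). Of the 36 rises of the first step, 11 were called lower and 0 higher between 50 and 84 h, and 26 had a log2 change below 0. Of the 36 falls, 6 were called higher and 2, hig and nkd, lower, and 27 were above 0. The 11 called lower later were CG12496 (called at the first step in 5 of the 12 fits that left out a library), CycA, tkv, Bj1, Lrt, Mmp2, Sip1, br, CR31386, CG9335 and chn, and the 6 called higher were Adgf-A, CrebA, CG32392, CR44024, Dys and sli.

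The difference of both steps, (36 h minus 24 h) minus (84 h minus 50 h), was called for 237 of all genes tested (2.97%). It contains the first step that chose the 72 genes, so for them it is given as a description, and only the late step is a separate measure. Sip1 stood at 111, 375, 247 and 26.1 CPM at the 4 ages, so the gene that rose at the first step ended lowest at 84 h (difference of steps 5.00 ± 0.37, adjusted p = 2.61e-08). Mmp2 stood at 51.6, 143, 225 and 63.9 CPM (3.28 ± 0.30, adjusted p = 2.56e-07). CrebA stood at 55.5, 14.96, 5.55 and 42.03 CPM, low in the middle and back near its first level at the end (-4.80 ± 0.46, adjusted p = 4.26e-07). Syp stood at 28520 and then 25560 CPM at the later ages, a late log2 change of -0.16, and the late changes of fd102C and Glycogenin were -0.10 and -0.06. Other genes were low at 36 h alone: scrt stood at 22.1, 4.70, 21.6 and 28.9 CPM, and gho at 62.3, 27.9, 59.5 and 68.01 CPM. For these the fall and the following rise rest on the same 36 h libraries. The zinc-finger gene elB was high at 36 h alone, with 24.9, 90.2, 33.9 and 16.6 CPM.

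**Figure D5:**
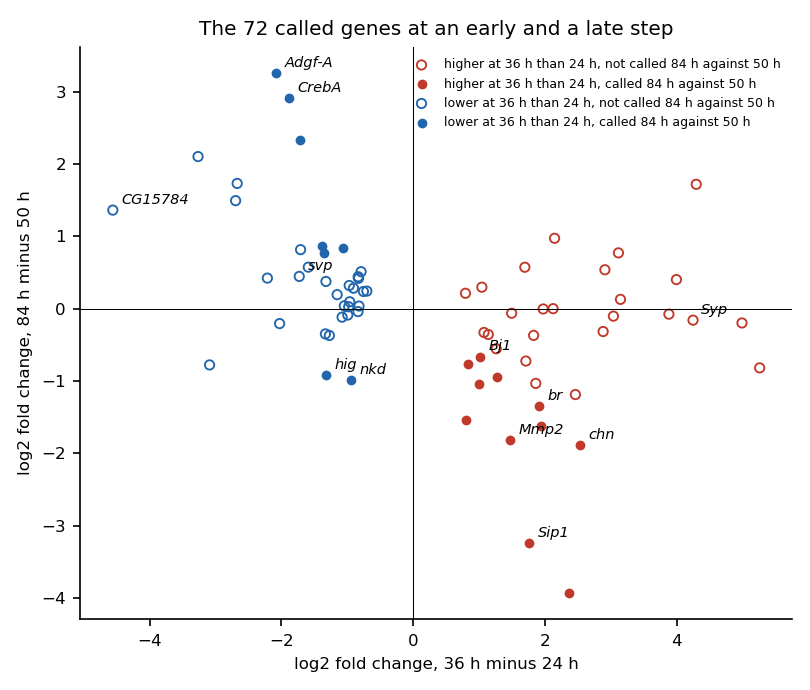
Log2 fold change of the 72 called genes between 50 and 84 h (vertical axis) against that between 24 and 36 h (horizontal axis), red for rises and blue for falls of the first step, filled where the late step was also called. The 11 filled red points all lie below 0, 6 of the 8 filled blue points lie above 0, and Syp lies near 0 on the vertical axis.

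Genes just outside the threshold are given as a description. The falls emp, ps and ush and the rise fas each had an adjusted p of 0.0502, followed by trbl at 0.0517, kibra at 0.0523, nmo at 0.0537 and CG13624 at 0.0541.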

How the data were processed

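RNA of pooled, sorted type II neuroblasts was sequenced in 12 libraries, and the 6 of 24 and 36 h ALH are compared here. The authors deposited 2 tables: whole-number counts per gene symbol, unscaled as judged from the values, and TPM, in which each library sums to 1000000. Per the submitters' processing notes the tools included HTSeq 0.6.1p1, STAR 2.4.0i and Bowtie2 2.1.0, along with cutadapt 1.7.1, and the builds named were mm10, dm3 and BDGP5. The role of each, the strand setting and the lengths used for TPM are not stated there. A row without a symbol, with 10 counts, was left out.

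The counts were tested with edgeR 4.0.16 in R 4.3.3 (TMM, filterByExpr by age, robust quasi-likelihood) on all 12 libraries together (8 residual degrees of freedom), after a filter that kept 99.85% of gene counts. P-values are two-sided, adjusted by Benjamini and Hochberg over all 7978 genes, with a threshold of 0.05. CPM use TMM-adjusted library sizes, and the SE is the log2 change divided by the root of its F statistic. As amplified reads without molecular identifiers are not independent molecules, floors reflect counting error alone. The alternatives used DESeq2 1.42.0, limma 3.58.1 on log2(TPM + 1) for genes with a mean TPM of at least 1, other scalings, filters and designs, and each library left out. The script was tested on simulated counts.

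Named genes were the 12 largest rises and 12 largest falls among called genes with a name and a mean of at least 10 CPM, the 4 called genes with the largest CPM difference, 4 numbered rises and 4 numbered falls, the temporal genes, and called or nearest members of each list. The members and lists were chosen with earlier results of these data known. Called genes outside that rule are given with fewer values. Same-numbered libraries were not paired in the test, and the correlations of their deviations from the age means were -0.039, 0.049 and 0.087. Symbols are those of the table, and current names come from RefSeq Release 6. No sequence is printed. One result is not reported here.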

Additional observations from a re-analysis of the deposited data

Results flagged for a closer look

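Listed here are 22 genes from the 12 largest rises, the 12 largest falls and the temporal genes. Each had a first step, 36 h minus 24 h, that differed from the late step, 84 h minus 50 h. The difference was tested in edgeR's interaction contrast over all 12 libraries, which 2.97% of all tested genes passed. Other genes named by rule also passed it, such as CR31386 (adjusted p = 4.75e-07) and CycA (adjusted p = 5.71e-05), and are not listed. Most of the 22 were named for their first step, which is part of that contrast, so for them the difference is a description. Each is given with the difference of both log2 changes and then with the first and the late step.

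Genes with a positive first and a negative late log2 change, not all of them called, were Sip1 (5.00, from 1.76 against -3.24, adjusted p = 2.61e-08), mamo (5.03, from 2.28 against -2.75, adjusted p = 0.0122), D (4.73, from 0.77 against -3.96, adjusted p = 9.28e-07), chn (4.41, from 2.53 against -1.88, adjusted p = 0.000382), cas (4.14, from 0.99 against -3.15, adjusted p = 0.0387), Mmp2 (3.28, from 1.47 against -1.81, adjusted p = 2.56e-07), br (3.26, from 1.92 against -1.34, adjusted p = 1.65e-06), elB (2.89, from 1.86 against -1.03, adjusted p = 9.11e-05), mas (2.20, from 1.83 against -0.37, adjusted p = 0.000539) and EcR (1.81, from 0.69 against -1.12, adjusted p = 7.26e-05). For cas, D, EcR and mamo the first step was not called, and for elB, mamo and mas the late step was not called.

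For some rises the late step was near 0, so that the difference mostly repeats the first step, namely Syp (4.40, from 4.25 against -0.16, adjusted p = 4.81e-08), fd102C (3.14, from 3.04 against -0.10, adjusted p = 0.00751) and Glycogenin (1.56, from 1.49 against -0.06, adjusted p = 9.11e-05). Genes with a negative first and a positive late step were Adgf-A (-5.34, from -2.08 against 3.26, adjusted p = 2.07e-05), CrebA (-4.80, from -1.89 against 2.91, adjusted p = 4.26e-07), scrt (-2.64, from -2.21 against 0.42, adjusted p = 0.0105), Lin29 (-2.53, from -1.71 against 0.82, adjusted p = 5.63e-05), svp (-2.18, from -1.73 against 0.45, adjusted p = 0.000162), Ten-m (-2.17, from -1.59 against 0.57, adjusted p = 7.83e-05), Dys (-2.14, from -1.36 against 0.78, adjusted p = 1.53e-05) and gho (-1.35, from -1.15 against 0.20, adjusted p = 0.0223), and of these the late step was called for Adgf-A, CrebA and Dys. For Imp both steps were negative, and the late one was the larger in size: Imp (4.23, from -0.74 against -4.97, adjusted p = 4.91e-09).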

How the results depend on the processing

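The numbers of genes higher and lower at 36 h, 36 and 36, were 43 and 32 with upper-quartile factors, 46 and 60 with length offsets, 20 and 0 with ERCC totals, 92 and 155 without a filter on low counts, 15 and 6 with sorted cells as a covariate, 3 and 0 against a 2-fold change, 83 and 111 with DESeq2 and 27 and 7 with the authors' TPM in limma. They were 25 and 25 with only the 24 h and 36 h libraries, where 19 of the 36 rises and 23 of the 36 falls were still called. With the replicate block the numbers of genes were 45 and 74. Whether the numbers pair the libraries is not known. For 24 h replicate 1 the highest correlation was with 36 h replicate 2 (0.054). For 24 h replicates 2 and 3 it was with the same-numbered library (0.049 and 0.087). Leaving out one library gave 20 to 80 rises and 9 to 100 falls. The 237 genes whose step differed from the late step became 78 with ERCC totals, 419 without a filter, 74 with the cell covariate, 380 with DESeq2 and 158 to 331 with one library left out. The log2 difference in gene counts per ERCC count per sorted cell, 0.549, was 0.391 to 0.807 with one library left out. With ERCC totals the log2 changes of 7 falls turned positive, namely CG11873 (0.083), CG8177 (0.112), Nrt (0.051), RhoGEF3 (0.056), enc (0.119), pgant5 (0.043) and rhea (0.170), and all 36 falls stayed below the median of all genes, 0.855. The cause of these changes was not tested. Of 1653 values of called genes under alternatives, 1142 kept their call and direction, 504 lost the call and 7 turned. These values include the test against a 2-fold change, which asks a different question and in which 3 rises and 0 falls were still called. The floor of 3 counts limits what can be said of genes under about 0.666 CPM.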
